A study of Mus musculus with 4 samples.

Results

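The cardiac dyad is the place where an invagination of the surface membrane, the T-tubule, meets the sarcoplasmic reticulum, and 10 genes of its calcium handling were followed here: Cacna1c, Ryr2, Atp2a2, Pln, Slc8a1, Casq2, Trdn, Asph, Jph2 and Camk2d. They were taken by their symbols from the 27998 genes in the files, and all 10 were found. Nuclei came from the right ventricles (RVs) of wild-type C57/BL6J mice at postnatal day 21 (P21). The surgery was done at P7 and was either a sham operation or RV volume overload (RVVO), made by a fistula between the abdominal aorta and the inferior vena cava. There were 2 sham and 2 RVVO libraries, named sham 1, sham 2, RVVO 1 and RVVO 2, and values are given in that order. The sources used here do not say how many mice made up a library, so the tests measure only the spread between these libraries. The study asked how RVVO acts on cardiomyocytes (CMs), and the comparison of RVVO with sham is made below for the dyad genes.

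A CM nucleus was one with at least 1 unique molecular identifier (UMI, 1 counted transcript) of Rbm20 or Fhod3 and none of Ptprb, Pdgfra, Pdgfrb or Mrc1. This gate held 3450, 4211, 2192 and 4338 nuclei, of 11439, 12815, 7681 and 11275 kept nuclei. Their median depth was 2762, 2721, 6660 and 3977 UMIs. A single gate UMI carried 25.5%, 26.0%, 10.6% and 10.2% of the CM nuclei, so the gate was passed on less evidence in the sham libraries. Endothelial (Ptprb), fibroblast (Pdgfra), pericyte (Pdgfrb) and macrophage (Mrc1) nuclei were gated in the same way, with at least 1 UMI of their own gene and none of Rbm20, Fhod3 or the genes of the other gates. Pericytes also had to lack Myh11. Smooth muscle nuclei needed at least 2 UMIs of Myh11 and could hold Pdgfrb. Smooth muscle nuclei were few, with 63, 69, 7 and 27. Between 45.6% and 59.5% of the kept nuclei of a library passed no gate. Pairs of libraries shared 28 to 70 cell barcodes.

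Of the 6 CM markers, 5 were highest in the CM gate (Ttn, Myh6, Tnnt2, Actn2 and Ldb3), and Myom1 was highest in the smooth muscle gate. The endothelial, fibroblast and macrophage lists had all 6 markers highest in their own gate, and the pericyte and smooth muscle lists had 5 of 6. CM markers were not absent from the other gates. Their summed level was 34461 to 39729 CPM (the UMIs of a gene, scaled so that all UMIs of a lineage in a library have the same total) in CMs and 9596 to 22331 CPM in the other gates. Within the CM gate the 6 endothelial markers summed to 424 to 469 CPM in sham and 241 to 247 CPM in RVVO, with none at 0. The 6 pericyte markers there summed to 431 to 488 CPM in sham and 339 to 340 CPM in RVVO, also with none at 0. The 4 glial markers there were lower in RVVO as well (21.7, 21.0, 15.0 and 10.7 CPM). Other lists did not separate the groups in the CM gate. The fibroblast markers summed to 412, 506, 429 and 693 CPM and the macrophage markers to 48.2, 49.0, 43.5 and 74.9 CPM. The erythroid markers summed to 463, 588, 1180 and 402 CPM. The 4 atrial CM markers there summed to 12.2, 147, 44.2 and 319 CPM, and the groups overlapped. The sham libraries held 1396 and 1386 CPM of Xist in CMs and the RVVO libraries 1.14 and 0.614 CPM, while Uty, on the Y chromosome, was at 0.227, 0.0612, 359 and 364 CPM. In RVVO against sham, sex and surgery therefore cannot be told apart.

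With each beat, calcium enters a CM through the L-type channel, whose pore is made by Cacna1c. It opens the ryanodine receptor Ryr2 across the narrow dyadic cleft, and the store in the sarcoplasmic reticulum empties into the cytosol. Relaxation follows when the pump SERCA2, encoded by Atp2a2 and held back by phospholamban (Pln), refills the store and the sodium-calcium exchanger Slc8a1 moves calcium out of the cell. In the store, calsequestrin (Casq2) binds calcium, while triadin (Trdn) and junctin, a product of Asph, anchor it to Ryr2. Junctophilin (Jph2) ties both membranes together, and the kinase Camk2d phosphorylates Ryr2 and Pln.

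Positions are those of GRCm38, as annotated by GENCODE. Cacna1c (ENSMUSG00000051331) lay at chr6:118587240-119196418 on the minus strand and Ryr2 (ENSMUSG00000021313) at chr13:11553102-12106945 on the minus strand. Atp2a2 (ENSMUSG00000029467) was at chr5:122453513-122502225, minus, Pln (ENSMUSG00000038583) at chr10:53337667-53345987, plus, and Slc8a1 (ENSMUSG00000054640) at chr17:81373105-81738377, minus. Casq2 (ENSMUSG00000027861) was at chr3:102086415-102146514, plus, Trdn (ENSMUSG00000019787) at chr10:33080554-33476709, plus, and Asph (ENSMUSG00000028207) at chr4:9448069-9669344, minus. Jph2 (ENSMUSG00000017817) was at chr2:163336242-163397993, minus, and Camk2d (ENSMUSG00000053819) at chr3:126596302-126846326, plus. Genes on the other strand overlapped 5 of the 10. Dcp1b, inside the Cacna1c interval, was at 194 to 269 CPM in CMs, and Cep85l, which overlaps Pln, at 388 to 567 CPM. The other 3 overlapping genes were below 2 CPM in CMs. The sources used here do not give the strand setting, so a part of these UMIs could belong to the partner gene.

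The promoters of Jph2 and Pln are shown because Jph2 had the lowest unadjusted p of the 10 genes in the comparison of RVVO with sham, and Pln had the smallest difference of the 10 between CM and endothelial nuclei. RefSeq promoters (GRCm38.p6) were at hand for 7 of the 10 genes, with 10 start sites. Atp2a2, Trdn and Asph had none. The 250 bases before the start are written 5′ to 3′ on the strand of the gene, chr2:163397994-163398243 (minus) for Jph2 and chr10:53337436-53337685 (plus) for Pln.
Jph2: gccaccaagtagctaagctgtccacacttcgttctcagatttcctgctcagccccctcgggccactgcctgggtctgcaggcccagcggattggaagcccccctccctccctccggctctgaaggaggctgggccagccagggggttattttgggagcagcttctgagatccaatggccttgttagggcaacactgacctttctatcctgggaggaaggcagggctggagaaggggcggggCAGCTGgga
Pln: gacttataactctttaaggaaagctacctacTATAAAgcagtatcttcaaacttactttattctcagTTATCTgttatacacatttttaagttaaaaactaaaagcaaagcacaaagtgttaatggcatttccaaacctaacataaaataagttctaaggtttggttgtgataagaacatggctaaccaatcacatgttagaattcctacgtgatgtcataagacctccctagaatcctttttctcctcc
Capitals mark matches, on either strand, to 1 of 5 letter patterns. In Jph2 the match was the E-box CAGCTG, which was in 13% of 32851 RefSeq promoters of this length. In Pln the matches were a TATA box pattern, TATAAA (12.4% of promoters), and a GATA pattern, AGATAA (9.99%), which is on the opposite strand there. Both lay nearer to the 5′ end of the window than to the start. GC content was 62.0% for this Jph2 start and 32.8% for Pln, beside a median of 52.4% over all promoters. The other starts held the E-box in the second Jph2 start, 20 bases away and overlapping the one shown, and the GATA pattern in Slc8a1. The MCAT pattern CATTCC (12.6% of promoters) and the MEF2 pattern (3.20%) were in none of the 10 windows. A match is a run of letters, and no binding was measured.

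The channels of the dyad were the most abundant of the 10 genes in CPM. Cacna1c was at 10902, 11697, 9665 and 10267 CPM in CM nuclei, and Ryr2 at 14038, 16352, 18231 and 13614 CPM. Every library thus had more Ryr2 than Cacna1c UMIs. For the pump, Atp2a2 was at 5038, 4486, 4396 and 3999 CPM and its inhibitor Pln at 1888, 1511, 1852 and 1872 CPM. The exchanger Slc8a1 was at 4494, 4745, 4968 and 5403 CPM. Among the genes of the store, Trdn was the highest, with 2299, 2319, 2881 and 3130 CPM, and Casq2 and Asph were near each other. Casq2 had 415, 373, 517 and 435 CPM and Asph 384, 419, 504 and 417 CPM. Jph2 had 1076, 1075, 776 and 774 CPM, and Camk2d 1109, 1031, 1045 and 1086 CPM.

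If intron reads were counted, CPM can favour long genes, which was not tested here. The order of the genes changed per length. Per kb of gene, Pln led with 214 ± 21.7 CPM per kb (SD, n = 4 libraries), Atp2a2 followed with 92.0 ± 8.79, and Ryr2 had 28.1 ± 3.88. Cacna1c had 17.5 ± 1.43, Jph2 15.0 ± 2.81 and Slc8a1 13.4 ± 1.06 CPM per kb of gene. Jph2 overlapped both of these neighbours over the libraries. Casq2 (7.23 ± 1.0) and Trdn (6.71 ± 1.05) overlapped each other as well, and Camk2d (4.27 ± 0.144) and Asph (1.95 ± 0.232) came last. Per kb of annotated exon, Atp2a2 came first with a mean of 737 CPM per kb, then Pln with 645, and Camk2d (47.5) and Asph (26.8) stayed last. Whether intron reads were counted is not stated, so both lengths are given.

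All 10 genes were higher in CM nuclei than in each of the other 5 lineages. Over 10425 genes tested by edgeR's quasi-likelihood test with Benjamini-Hochberg adjustment, 36.0% were called higher in CMs than in endothelial nuclei, 30.9% than in fibroblasts, 28.3% than in pericytes, 18.6% than in smooth muscle and 29.4% than in macrophages (adjusted p under 0.05). The 10 genes were called in all 5. Their median log2 difference was 3.0 against endothelial nuclei, 2.88 against fibroblasts, 2.31 against pericytes, 1.52 against smooth muscle and 2.61 against macrophages, where the median over all genes was between -0.06 and 0.17.

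The size of this difference separated the 10 genes. The folds given here are those of the fit, which rescales each lineage sum, so they differ from ratios of the CPM values. Cacna1c was at 411 ± 76.1 CPM in endothelial nuclei (SD, n = 4), 3.21% to 4.37% of its CPM in CMs of the same library. By the fit it was 35.2-fold higher in CMs, with a log2 difference of 5.14 (SE 0.16). Ryr2 was 18.9-fold higher and Slc8a1 17.7-fold higher than in endothelial nuclei, Jph2 14.8-fold and Trdn 11-fold. Casq2 and Asph differed by 5.86-fold and 5.01-fold, and Atp2a2 by 3.61-fold. The smallest differences from endothelial nuclei were those of Camk2d (2.58-fold) and Pln (2.45-fold). Pln was at 1191, 802, 902 and 1098 CPM in endothelial nuclei, 48.7% to 63.1% of its level in the CMs of the same library. The smallest of all 50 differences in the fit was Camk2d against smooth muscle, 1.90-fold with a log2 difference of 0.92 (SE 0.12). In CPM the Camk2d level of smooth muscle was 64.6% to 77.6% of that in CMs.

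**Figure D1:**
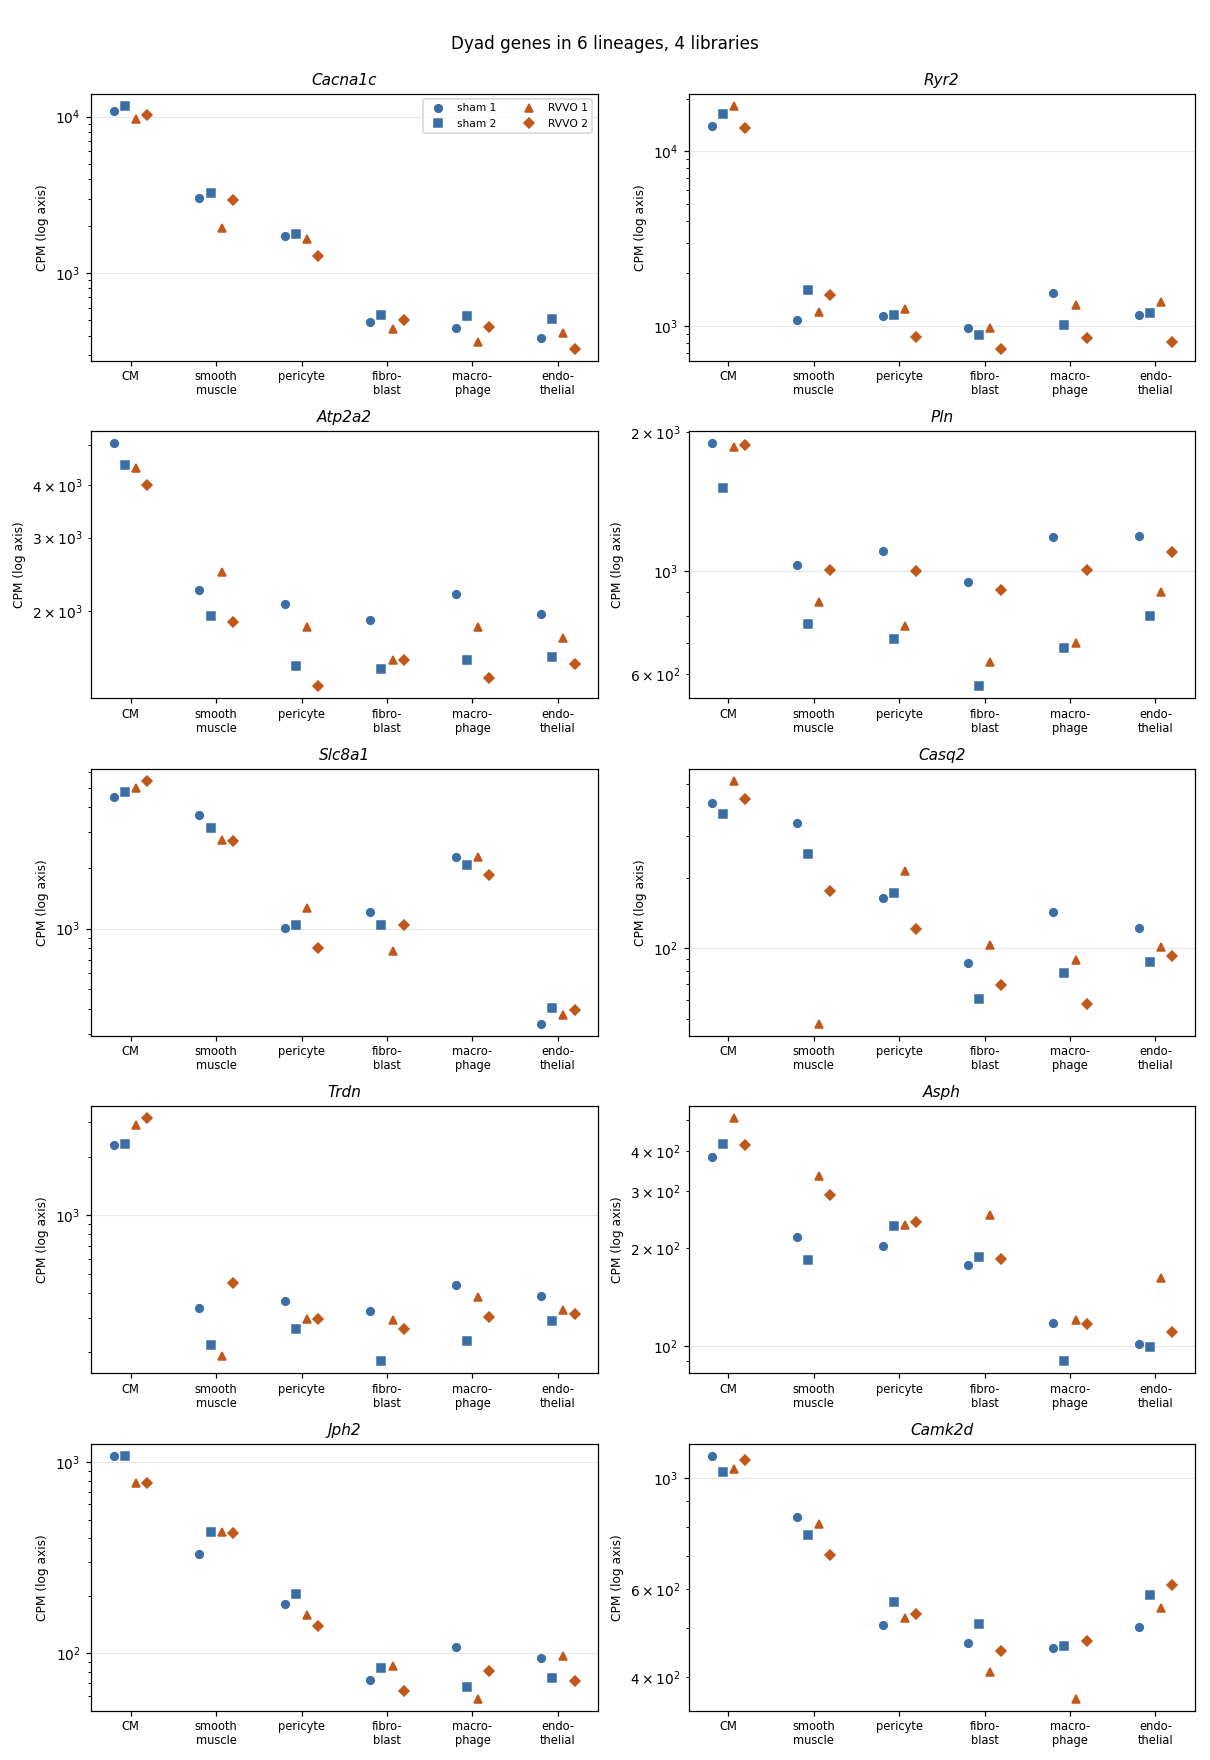
Level of each of the 10 genes (CPM, log axis) in the 6 gated lineages, with 1 point per library. CM nuclei hold the highest value of every gene by library mean, with Ryr2 at 13614 to 18231 CPM, while Slc8a1 is also high in smooth muscle and macrophage nuclei and Cacna1c in smooth muscle and pericyte nuclei.

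Below the CMs the order of the lineages differed by gene. For Cacna1c, smooth muscle (3031, 3267, 1955 and 2923 CPM) stood above pericytes (1724, 1789, 1660 and 1284 CPM) without overlap, and pericytes above the rest. Fibroblasts, macrophages and endothelial nuclei overlapped at means of 494, 450 and 411 CPM. For Slc8a1, smooth muscle had 3652, 3144, 2765 and 2718 CPM, macrophages 2264, 2065, 2277 and 1844 CPM, and neither overlapped its neighbour. Pericytes (mean 1030 CPM) and fibroblasts (1017 CPM) overlapped, and endothelial nuclei came last with 376 CPM. Jph2 followed the order of Cacna1c at the top, with 331, 429, 429 and 424 CPM in smooth muscle and 181, 205, 159 and 139 CPM in pericytes. The 3 lowest lineages of Jph2 overlapped at 76.5 to 84.5 CPM.

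The other genes set the lineages apart less. Camk2d in smooth muscle (838, 769, 810 and 701 CPM) stood above the endothelial nuclei (mean 562 CPM), and the 4 lower lineages overlapped each in turn. Asph was grouped in smooth muscle, pericytes and fibroblasts (means 257, 228 and 202 CPM) above endothelial nuclei and macrophages (118 and 111 CPM). Casq2 ran from a mean of 205 CPM in smooth muscle to 80.1 CPM in fibroblasts, with an overlap at every step. For Ryr2, Atp2a2, Pln and Trdn every neighbouring pair below the CMs overlapped. Their means there were 890 to 1345, 1605 to 2141, 765 to 998 and 265 to 340 CPM.

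Against endothelial nuclei, which were the most numerous after CMs, the other lineages were tested in the same fit. This comparison was added after the levels had been seen. In smooth muscle 6 of the 10 genes were higher, where 9.72% of all genes were called higher and 14.0% lower. They were Slc8a1 (log2 difference 3.0, SE 0.17), Cacna1c (2.76, SE 0.16), Jph2 (2.18, SE 0.18), Casq2 (1.36, SE 0.24), Asph (1.04, SE 0.18) and Camk2d (0.44, SE 0.13), and the median of all genes was -0.12. The call of Camk2d was lost in edgeR without sham 1 (0.28, adjusted p = 0.279), without sham 2 (0.42, adjusted p = 0.0787) and with no filter on low counts (0.30, adjusted p = 0.176). In pericytes 5 were higher, against 16.8% of all genes higher and 16.4% lower: Cacna1c (1.95, SE 0.14), Slc8a1 (1.42, SE 0.16), Jph2 (1.0, SE 0.14), Asph (0.97, SE 0.11) and Casq2 (0.69, SE 0.17). With this gate both mural lineages, whose contraction also uses the L-type channel, had more Cacna1c, Slc8a1, Jph2, Asph and Casq2 than endothelial nuclei. For Casq2 in smooth muscle this did not hold in RVVO 1, at 47.7 CPM (1 UMI) beside 101 CPM in endothelial nuclei.

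In macrophages only Slc8a1 was called higher than in endothelial nuclei (log2 difference 2.42, SE 0.16), among 18.9% of all genes, and Camk2d was lower (-0.41, SE 0.11), among 17.5%. In fibroblasts Slc8a1 (1.36, SE 0.15) and Asph (0.71, SE 0.11) were higher, among 23.0% of all genes. Ryr2, Pln, Casq2, Trdn and Camk2d were lower there by log2 differences of -0.36 to -0.46, among 22.4% of all genes. The calls lower for Casq2, Trdn, Ryr2 and Camk2d were each lost in at least 1 alternative. These comparisons depended on the gate. When nuclei of the other lineages could hold Rbm20 or Fhod3, 0 of the 10 genes were called higher than in endothelial nuclei in fibroblasts, 2 in smooth muscle, 4 in pericytes and 8 in macrophages. The share of all genes called higher with that gate is not given here, so nothing is read from these counts alone. The higher calls that were lost were those of Cacna1c (log2 difference -0.29), Jph2 (0.12), Asph (0.13) and Camk2d (0.02) in smooth muscle, Slc8a1 in pericytes (0.33, adjusted edgeR p 0.0733), and Slc8a1 (-0.01) and Asph (0.20) in fibroblasts.

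In droplet data free RNA can add UMIs to every nucleus, and a source of 1 composition keeps its genes in 1 ratio in all lineages. The ratio to the CM gene Ttn was therefore taken, as a description added after the levels had been seen. Myh6, a CM gene, was at 112 to 153 UMIs per 100 Ttn UMIs in the 5 other lineages and at 49.1 to 64.7 in CM nuclei. Pln gave 14.3 to 16.6 UMIs per 100 Ttn UMIs over the 5 other lineages of sham 1, 13.7 to 16.1 in sham 2, 9.84 to 12.8 in RVVO 1 and 21.5 to 24.4 in RVVO 2. Within a library these 5 values lay close together, while CM nuclei had 9.49, 7.62, 8.59 and 10.1. Trdn gave 4.87 to 5.43 in the 5 other lineages of sham 1 and 4.55 to 5.30 in sham 2, and 11.6 and 11.7 in the CMs of these libraries. In RVVO 1 it gave 2.44 to 5.74 and in RVVO 2 6.14 to 9.97, with 13.4 and 16.9 in CMs. The 2.44 and the 9.97 were smooth muscle, with 4 UMIs in 7 nuclei and 31 UMIs in 27 nuclei. Without smooth muscle the lineages other than CMs gave 4.65 to 5.74 in RVVO 1 and 6.14 to 7.17 in RVVO 2.

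Slc8a1 and Cacna1c had no common ratio. Slc8a1 was at 4.26 to 7.71 UMIs per 100 Ttn UMIs in endothelial nuclei, 27.3 to 41.5 in macrophages and 35.4 to 65.7 in smooth muscle. In every library both macrophages and smooth muscle exceeded the CM nuclei, which were at 22.6 to 29.1. Cacna1c was at 4.83 to 8.99 in endothelial nuclei, 23.9 to 36.1 in pericytes and 25.0 to 68.3 in smooth muscle. Jph2 was at 1.19 to 1.41 in endothelial nuclei and at 5.33 to 9.32 in smooth muscle. The part of free RNA in each level was not tested.

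**Figure D2:**
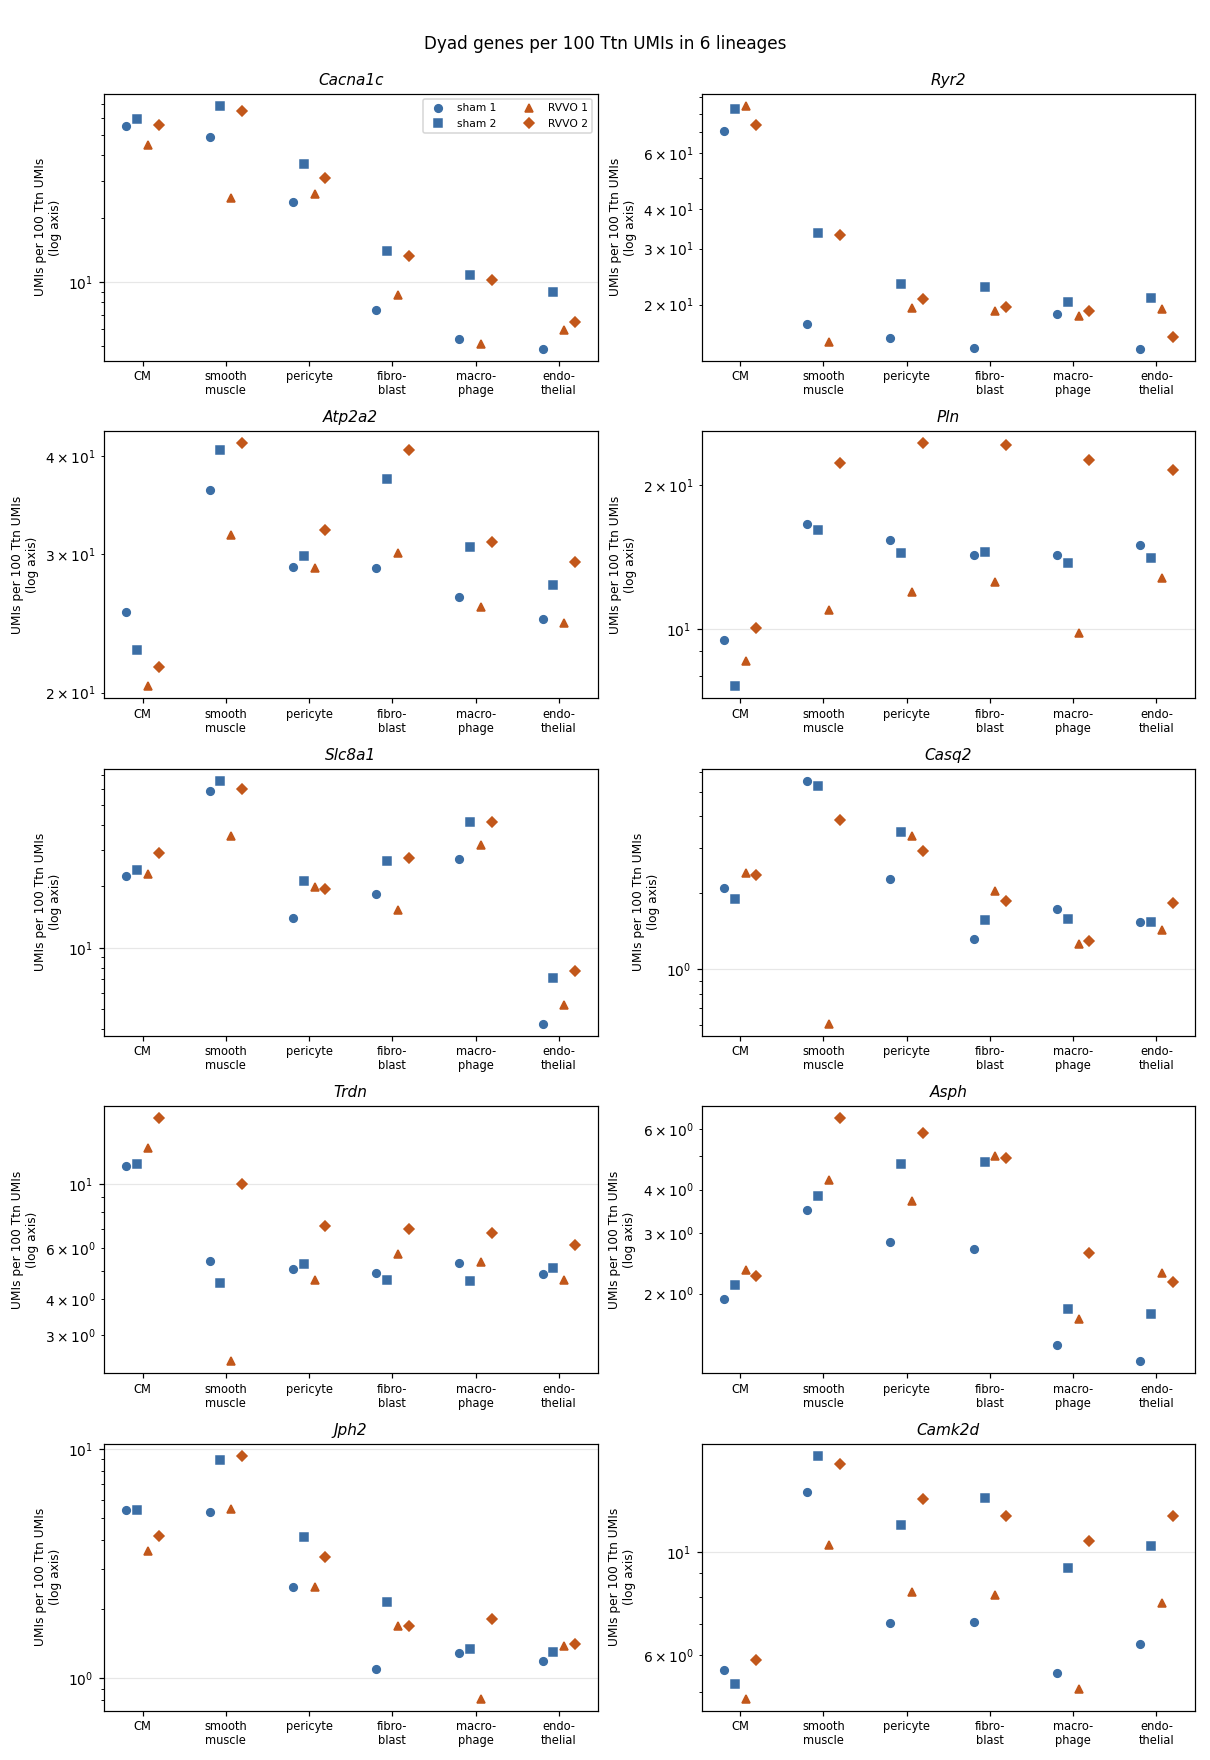
UMIs of each of the 10 genes per 100 Ttn UMIs (log axis) in the 6 lineages, with 1 point per library. In RVVO 2, Pln stays within 21.5 to 24.4 over the 5 other lineages, while Slc8a1 runs from 7.71 in endothelial nuclei to 59.8 in smooth muscle nuclei.

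Over the 24 sums of 6 lineages in 4 libraries, the genes most like each of the 10 were found among 10425 genes by the Pearson correlation of log2 (CPM + 1). Sums of 1 library share its depth and free RNA, and the lineages differ in many genes, so these values describe only a shared pattern. Cacna1c was most like Akap6 (r = 0.96), a scaffold of the nuclear envelope and the sarcoplasmic reticulum, and Ank3 (0.96). Jph2 was also most like Akap6 (0.98), then Speg (0.97), a kinase of the junctional membrane. Ryr2 was most like Ogdh (0.98) and Fhl2 (0.98), Atp2a2 like Ttn (0.95) and Fhl2 (0.95), and Trdn like Lrrc2 (0.97) and Cmya5 (0.96). Pln was most like Tnnt2 (0.98) and Naca (0.91). Slc8a1 was most like St3gal3 (0.91) and Ppp1r9a (0.88), Casq2 like Fblim1 (0.90) and Srl (0.89), Asph like Fam214a (0.93) and Cacna2d1 (0.92), and Camk2d like Plin4 (0.95) and Dag1 (0.95). Among the 10 themselves, Cacna1c and Jph2 had the highest correlation (0.97) and Pln and Slc8a1 the lowest (0.45).

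The wider calcium list had 72 other genes, of which 70 were in the files (Strit1 and Mrln were not matched) and 56 were tested between lineages. Against endothelial nuclei 24 were higher in CMs, 22 were lower and 10 were not called, with a median log2 difference of 0.16 beside -0.01 for all genes. The higher and lower counts were 24 and 18 against fibroblasts, 22 and 19 against pericytes, 16 and 17 against smooth muscle and 26 and 19 against macrophages. Of all 10425 genes, 3752 were higher and 3751 lower in CMs than in endothelial nuclei.

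Of 8 tested L-type and T-type channel genes and channel regulators, 6 were higher than in endothelial nuclei, namely Cacnb2 (log2 difference 4.38, SE 0.16) and Cacna2d1 (3.15, SE 0.15), the partners of the Cacna1c pore, with Cacna1g (2.76), Cacna1h (2.25), Rrad (2.0) and Cacna1d (1.93). Rem1 was lower (-0.71). Of 9 genes of calcium release and its modulators, none was higher and 6 were lower in CMs, among them Itpr3 (-2.31), Sri (-1.0), Fkbp1a (-0.99), Calm3 (-0.68) and Itpr1 (-0.52). Itpr1 and Itpr3 encode inositol trisphosphate receptors, which many cell types use.

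Of 8 genes of the store, 4 were higher: Jph1 (3.51), the relative of Jph2, Tmem38a (2.55), Srl (2.54) and Tmem38b (1.01). The 4 others were lower, namely Stim2 (-2.69), Stim1 (-1.78), which sense the filling of the store, Calr (-0.85) and Hrc (-0.33). Hrc was at 113 to 224 CPM in CMs and at a mean of 242 CPM in endothelial nuclei. The part of free RNA in the differences of the list genes was not tested. Among 6 pumps and exchangers Slc8a2 was higher (2.36), at 1.51 to 3.24 CPM in CMs, and Atp2b4 (-2.77), Atp2a3 (-2.35), Slc8b1 (-1.32) and Atp2b1 (-0.39) were lower. Among 11 kinases, phosphatases and their partners 9 were called higher by the fit: Speg (3.94), Akap6 (3.93), Camk2a (3.80), Pde4d (3.74), Pde3a (1.68), Prkaca (0.79), Prkar1a (0.67), Camk2g (0.41) and Prkar2a (0.30). In CPM the last 2 were not clearly higher. Prkar2a was at 55.2 to 58.1 CPM in CMs, below its endothelial mean of 62.3 CPM. Camk2g was at 64.3 to 84.8 CPM, beside an endothelial mean of 71.5 CPM. Ppp3ca (-1.04) and Ppp1ca (-0.67) were lower. Of 7 T-tubule and membrane genes, Ank2 (3.91), Nexn (3.65), Cav3 (1.86) and Mtm1 (1.46) were higher and Bin1 (-1.96) lower. Of 7 mitochondrial calcium genes, 4 were lower, among them Ccdc109b (-0.95), Mcu (-0.84) and Smdt1 (-0.34), and none was higher.

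Between RVVO and sham, none of the 10 genes was called in CM nuclei. Jph2 and Trdn came nearest, in opposite directions. Jph2 was lower in both RVVO libraries (776 and 774 CPM) than in both sham libraries (1076 and 1075 CPM), with a fitted log2 difference of -0.46 (SE 0.12), or 0.726-fold. In edgeR its unadjusted p was 0.0110 and its adjusted p 0.368. Trdn was higher in both RVVO libraries (2881 and 3130 CPM) than in both sham libraries (2299 and 2319 CPM), with a log2 difference of 0.39 (SE 0.13), an edgeR p of 0.0291 and an adjusted p of 0.472. Only 8 of 14919 genes were called in this fit (0.0536%), 6 of them Xist, Tsix, Uty, Ddx3y, Eif2s3y and Kdm5d, on the sex chromosomes. At an unadjusted edgeR p under 0.05 stood 2 of the 10 genes and 9.07% of all genes. DESeq2 called 232 genes, none of the 10, and had the same 2 at an unadjusted p under 0.05.

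**Figure D3:**
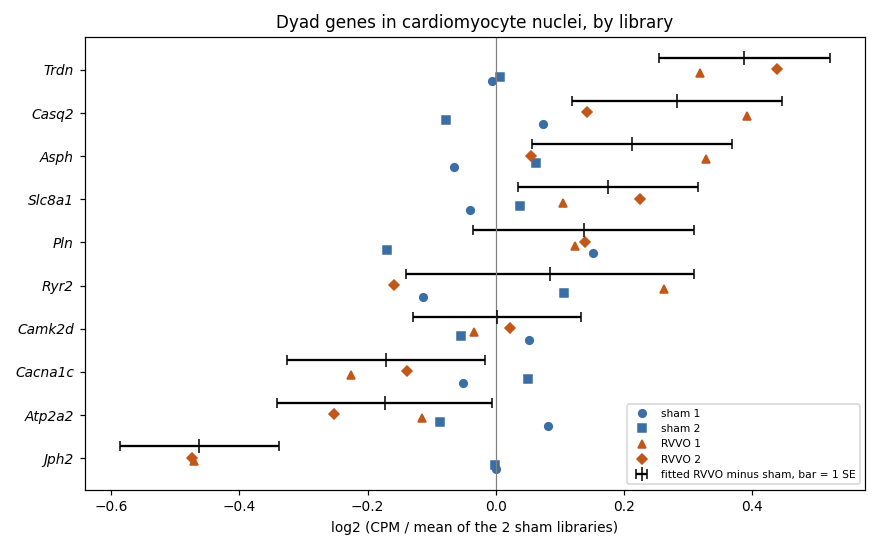
Level of each of the 10 genes in CM nuclei as log2 of CPM over the mean of the sham libraries, with 1 point per library and the fitted difference of RVVO minus sham with its SE (black). Jph2 is lower in both RVVO libraries (776 and 774 CPM) and Trdn higher (2881 and 3130 CPM) than in either sham library, and no difference passed the adjusted threshold.

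The RVVO libraries lay above both sham libraries for 3 of the 10 genes (Slc8a1, Casq2 and Trdn), and this was so for 18.5% of all genes. They lay below both for 3 others (Cacna1c, Atp2a2 and Jph2), and for 19.9% of all genes. For Ryr2, Pln, Asph and Camk2d the groups overlapped. The log2 differences were 0.28 (SE 0.16) for Casq2, 0.18 (SE 0.14) for Slc8a1, -0.17 (SE 0.15) for Cacna1c and -0.17 (SE 0.17) for Atp2a2, with adjusted p of 0.697 to 0.827. Camk2d differed least, at 1070 ± 55.0 CPM in sham and 1065 ± 28.8 CPM in RVVO (SD, n = 2), with a log2 difference of 0.00 (SE 0.13). The median of the 10 was 0.11, beside 0.00 for all genes.

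Depth, the share of nuclei with a single gate UMI and the endothelial and pericyte markers moved with the groups, as given above. With at least 2 gate UMIs the log2 difference of Jph2 was -0.58 and that of Trdn 0.29, and with nuclei thinned to 1000 UMIs they were -0.33 and 0.49. Jph2 stayed lower and Trdn higher in RVVO under these settings, and neither was called. The sign of Ryr2, Pln and Camk2d depended on the setting. The median share of mitochondrial UMIs in CM nuclei was 0.741%, 0.798%, 0.309% and 0.302%. The part of these shifts in the differences was not tested.

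In the 72 other genes of the calcium list none of the 65 tested was called between RVVO and sham by edgeR, and 6 had an unadjusted p under 0.05, beside 9.07% of all genes. Their median log2 difference was -0.01 and that of all genes 0.00. By part, the medians ran from -0.26 for the channel genes to 0.09 for the kinases and phosphatases.

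Ratios of UMIs within a library are not scaled by its total. The CM gate behind them still depended on depth, since more sham nuclei passed on a single gate UMI. Pln UMIs per Atp2a2 UMI, inhibitor over pump, were 0.375, 0.337, 0.421 and 0.468 in CMs, higher in both RVVO libraries, with a log2 difference of 0.32. Slc8a1 UMIs per Atp2a2 UMI were 0.892, 1.06, 1.13 and 1.35, with the RVVO libraries again on top and a log2 difference of 0.35. In the exact two-sided permutation test each gave p = 0.333, which is the smallest that 2 libraries against 2 can reach. Cacna1c UMIs per Ryr2 UMI were 0.777, 0.715, 0.530 and 0.754, where the groups overlapped (exact permutation p = 0.667). Adjusted over the 3 ratios by Benjamini-Hochberg, these exact permutation values were 0.5, 0.5 and 0.667. In endothelial nuclei, measured in the same way, Pln per Atp2a2 was 0.605, 0.515, 0.522 and 0.734. Slc8a1 per Atp2a2 was 0.172, 0.259, 0.215 and 0.263 there, and the groups overlapped for both ratios. In smooth muscle nuclei Slc8a1 per Atp2a2 was 1.62, 1.62, 1.12 and 1.44, lower in both RVVO libraries, and Pln per Atp2a2 overlapped.

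The share of CM nuclei with a UMI was compared after thinning to 1000 UMIs, which left out 458, 742, 9 and 0 nuclei. For Trdn it was 71.2% ± 3.93 in sham and 82.2% ± 1.02 in RVVO (SD, n = 2), and in endothelial nuclei, which should lack the gene, 28.2% and 29.8%. For Jph2 it was 49.2% ± 1.06 in sham and 45.6% ± 1.57 in RVVO, with 8.21% and 8.85% in endothelial nuclei. Without thinning the Jph2 shares were 62.0% and 80.1%, in the order of the depth rather than of the CPM. For Cacna1c the thinned share was 81.5% ± 1.43 in sham and 88.1% ± 0.222 in RVVO, with 34.0% and 28.9% in endothelial nuclei, while its CPM was lower in both RVVO libraries, so no order is read from it. The other shares in CMs ranged from 25.3% for Casq2 in sham 2 to 96.3% for Atp2a2 in sham 1, where 76.4% to 85.4% of endothelial nuclei also held Atp2a2. Ryr2, Slc8a1, Casq2, Asph and Camk2d also had higher thinned shares in both RVVO libraries than in both sham libraries. The groups overlapped for Atp2a2 and Pln. A higher share in RVVO was thus not particular to Trdn, and the part of all genes with it is not given here. In no gene could the exact permutation test pass 0.05.

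In the other lineages none of the 10 genes was called between RVVO and sham by edgeR or by DESeq2. All genes called by edgeR were 0.162% in endothelial nuclei, 0.0897% in fibroblasts, 0.181% in pericytes, 0.195% in smooth muscle and 0.107% in macrophages. At an unadjusted edgeR p under 0.05 there was 1 gene in smooth muscle and none in the 4 others. Of all genes this p was reached by 922 of 11745 in endothelial nuclei, 411 of 10032 in fibroblasts, 419 of 8297 in pericytes, 129 of 2559 in smooth muscle and 358 of 7486 in macrophages. The 1 dyad gene was Casq2 in smooth muscle, at 343, 252, 47.7 and 175 CPM, with a log2 difference of -1.10 (SE 0.50) and an adjusted p of 0.966. The RVVO 1 value was 1 UMI in 7 nuclei, with an exact Poisson 95% interval of 1.21 to 266 CPM that covers counting error only. Jph2 in pericytes was lower in both RVVO libraries (159 and 139 CPM) than in both sham libraries (181 and 205 CPM). Its log2 difference was -0.43 (SE 0.23), with an adjusted edgeR p of 0.998. Cacna1c was also lower in both RVVO libraries in pericytes (-0.30, SE 0.25), and Asph was higher (0.08, SE 0.22). The share of all pericyte genes with the groups apart is not given here. For Jph2 the groups overlapped in endothelial, fibroblast, smooth muscle and macrophage nuclei.

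The difference of the RVVO effect between CMs and another lineage was tested as an interaction in the same counts. None of the 10 genes was called in any of the 5 tests by edgeR, where 0.384% of genes were called against endothelial nuclei, 0.0576% against fibroblasts, 0.0863% against pericytes, 0% against smooth muscle (where 844 of 10425 had an unadjusted p under 0.05) and 0.106% against macrophages. At an unadjusted p under 0.05 the 10 genes gave 2 against smooth muscle (Casq2 and Slc8a1), 1 against endothelial nuclei (Trdn) and 1 against macrophages (Casq2), and none against fibroblasts and pericytes. Of all 10425 genes, 920 reached this p against endothelial nuclei, 687 against fibroblasts, 778 against pericytes and 782 against macrophages. For Trdn against endothelial nuclei the difference was 0.51 (SE 0.24, adjusted p in edgeR 0.538). For Jph2 the differences from the 5 lineages lay between -0.37 and -0.01 with SEs of 0.23 to 0.36.

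Across CM nuclei thinned to 2000 UMIs, the 10 genes varied together to different degrees. The nuclei of a library were 2118, 2559, 1969 and 3920 here, and the correlations describe these nuclei without a test. Cacna1c and Ryr2 had the highest Pearson r of the 45 pairs, 0.78, 0.79, 0.79 and 0.81. By the mean over the libraries, Slc8a1 and Trdn came next with both channels, at 0.55 to 0.67. Atp2a2 was at 0.49 to 0.60 with Cacna1c and at 0.49 to 0.61 with Ryr2, and in sham 1 both of these pairs were above those of Trdn. Pln with Asph was lowest by the mean (0.06), and other pairs were lower in sham 2, RVVO 1 and RVVO 2. Sparse counts keep such values low, so a low r is no finding. Cacna1c and Ryr2 were also the 2 most abundant of the 10 genes in CPM. The part of abundance in the order of the pairs was not tested. Where at least 2 gate UMIs were required, Cacna1c with Ryr2 was between 0.65 and 0.71, and it was still the highest pair. The mean r was lower with this gate for the other pairs as well. Cacna1c with Jph2 went from 0.44 to 0.31 and Ryr2 with Trdn from 0.61 to 0.45. The part of the make-up of the gate in these correlations was not tested.

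**Figure D4:**
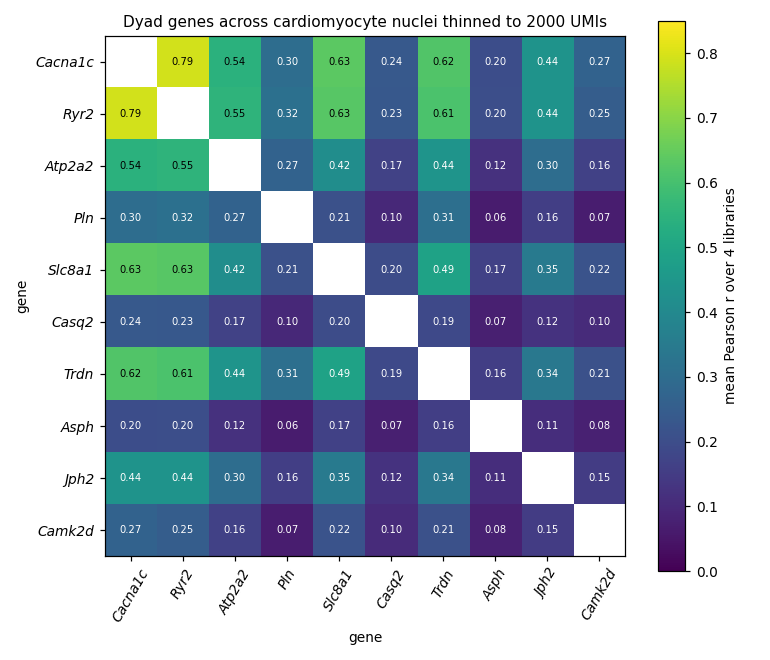
Pearson r between each pair of the 10 genes across CM nuclei thinned to 2000 UMIs, as the mean over the 4 libraries (colour and number). Cacna1c and Ryr2 have the highest value (0.79) and Pln and Asph the lowest (0.06).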

How the data were processed

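Nuclei were isolated from frozen RVs and sequenced with the 10x 3′ chemistry. The matrices deposited by the authors hold UMI counts per gene and barcode with no normalization. The file headers name Cell Ranger 5.0.0, and the submitters' processing notes list Cell Ranger 3.0.1, STAR, Seurat 3.0.2 and the builds GRCm38 and mm10. Intron and strand settings were not given in these sources. Of the gene identifiers, 98.7% were in GENCODE M21, from which positions were taken.

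Library totals were 55516713, 51010039, 64739206 and 63422784 UMIs in 53090 barcodes. Barcodes below 200 genes, or with 10% or more mitochondrial UMIs, were dropped. Scrublet (scanpy 1.11.5) marked 0, 0, 1 and 0 doublets by its own threshold, which is too few, so the highest scores were removed at 0.8% per 1000 barcodes. Counts were summed per lineage and library, and the library was the replicate. Sums were tested with edgeR 4.0.16 (TMM, filterByExpr, quasi-likelihood test, Benjamini-Hochberg adjustment over all genes, threshold 0.05) in R 4.3.3. RVVO was fitted against sham within each lineage, and lineages and interactions were fitted in all sums with the library as a term. For ratios and shares the exact permutation test over libraries was two-sided (scipy 1.17.1). The tests were checked on simulated data. Alternatives were DESeq2 1.42.0, other scalings, filters, depths and gates, a block for replicate number, and fits without 1 library. Calcium list genes were named with values where called between CM and endothelial nuclei and otherwise counted (some called genes are not reported here by name), and for each dyad gene the 2 most similar genes were named. The 10 genes and all lists were chosen with earlier results of these data known. The comparisons with endothelial nuclei, the ratios to Ttn and the letter patterns searched in promoters were chosen after seeing the data.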

Additional observations from a re-analysis of the deposited data

Results flagged for a closer look

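The fitted RVVO differences in CM and smooth muscle nuclei had opposite signs for Casq2 and Slc8a1. In both lineages the sham and RVVO libraries were apart. The share of all genes with this pattern is not given here. For Casq2 both RVVO libraries were above both sham libraries in CMs (log2 difference 0.28, SE 0.16) and below them in smooth muscle (-1.10, SE 0.50). These values are from the fits within each lineage. In the fit of all lineage sums, which was scaled separately, the difference of the effects was 1.58 (SE 0.48, adjusted p in edgeR 0.490). For Slc8a1 the values within the lineages were 0.18 (SE 0.14) and -0.34 (SE 0.34). Its difference in the fit of all sums was 0.86 (SE 0.28, adjusted p in edgeR 0.557). The median of this difference over all 10425 genes was 0.36 in that fit, and its part in both values was not tested. Neither passed the adjusted threshold, and RVVO 1 held 7 smooth muscle nuclei with 1 UMI of Casq2 and 58 of Slc8a1.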

How the results depend on the processing

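The count of dyad genes called between RVVO and sham was 0 in all 6 lineages under every alternative run, the replicate block included, and that of the interactions was 0 under both alternatives run. All 10 genes were called higher in CMs than in each other lineage under every alternative. The library numbers are only shared numbers, with a correlation of the numbered pairs of 0.133 in CMs and at most 0.0721 elsewhere. With the replicate block 7 genes in all were called in CMs in place of 8. This total was 232 with DESeq2, 227 with no filter on low counts and 13 with nuclei thinned to 1000 UMIs, and 7 to 12 without 1 library. In the 5 other lineages, with 5 to 19 genes in all called, it was 10 to 368 with no filter, 2 to 95 with DESeq2, 2 to 42 with the replicate block and 4 to 127 without 1 library. When the other lineages could hold Rbm20 or Fhod3, the dyad genes higher than in endothelial nuclei numbered 0 in fibroblasts in place of 2, 2 in smooth muscle in place of 6 and 8 in macrophages in place of 1. Signs also changed there for Cacna1c in smooth muscle (-0.29), Camk2d in macrophages (0.13) and Slc8a1 in fibroblasts (-0.013), none of them called. The cause was not tested, and the share of all genes called with that gate is not given here.

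In CMs the sign of Camk2d between RVVO and sham turned with at least 2 gate UMIs (-0.079), stricter barcode filters (-0.013), a common lowest UMI count (-0.076) and library totals alone (-0.0056), and ran from -0.080 to 0.093 without 1 library. Ryr2 turned with at least 2 gate UMIs (-0.031) and the common UMI count (-0.015). It ran from -0.19 without RVVO 1 to 0.31, and Pln from -0.043 without sham 2 to 0.35. The log2 ratio of Cacna1c to Ryr2 ran from -0.49 to 0.017, positive without RVVO 1, and those of Pln and of Slc8a1 to Atp2a2 from 0.25 to 0.40 and from 0.22 to 0.48. Without thinning the share of nuclei with Jph2 was 18.1 points higher in RVVO. After thinning to 1000 UMIs the share of nuclei with Atp2a2 was lower in RVVO when RVVO 1 was left out (-0.08 points). This thinned share without 1 library ran from -1.66 to 1.78 points for Atp2a2 and from -3.59 to 9.18 points for Pln.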

Other observations

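Nuclei that passed no lineage gate, which were 45.6% to 59.5% of the kept nuclei, entered no comparison, and they held the dyad genes as well. Ryr2 was at 5144, 5541, 8708 and 5413 CPM in their sums (sham 1, sham 2, RVVO 1 and RVVO 2) and Cacna1c at 4041, 3769, 4696 and 3864 CPM, between the levels of CM and endothelial nuclei in every library. Jph2 was at 406, 380, 387 and 326 CPM there, and the groups overlapped, unlike in CM nuclei. Trdn was at 906, 836, 1365 and 1202 CPM and Slc8a1 at 2039, 2029, 2769 and 2587 CPM. For both, the RVVO libraries lay above both sham libraries, as in CM nuclei. Asph and Camk2d were also higher in both RVVO libraries there, though their groups overlapped in CM nuclei. Cacna1c, Atp2a2 and Casq2 overlapped there, though their groups were apart in CM nuclei. The share of all genes with the groups apart is not given for these sums. These sums mix cell types in shares that are not known. The CM gate genes were also higher in both RVVO libraries there, with Rbm20 at 1342, 1315, 1926 and 1445 CPM. Fhod3 was at 1035, 1008, 1709 and 1193 CPM. Ttn overlapped, and endothelial Ptprb (421, 375, 349 and 272 CPM) and Pecam1 (396, 390, 293 and 354 CPM) were lower in both RVVO libraries. The part of the mix in the differences was not tested.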
